A study of Carassius auratus with 4 samples.

Results

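Proteins that enter the secretory pathway are handled in the endoplasmic reticulum (ER). The clones described here, all but 1, stand for the machinery that brings in, folds or removes such proteins. They were the cDNA clones whose printed description held 1 of 11 terms, among them translocon-associated, Sec61, signal peptidase, disulfide-isomerase, glucose-regulated protein and transitional endoplasmic reticulum ATPase. The rule found 17 of the 8100 clones on a goldfish (Carassius auratus) array, and all 17 could be tested. They fell into 4 clones of the translocon-associated protein (TRAP) complex, 1 of Sec61 beta, 3 of signal peptidase, 5 of protein disulfide-isomerases, 3 of the transitional ER ATPase and 1 that entered by its name alone. The terms endoplasmin, calreticulin, calnexin and signal sequence receptor matched 0 clones. The only clone with glucose-regulated protein in its description was 19h23, YTH domain protein 2, also called high-glucose-regulated protein 8, which is not an ER chaperone. Its relatives in mammals bind modified RNA. The label of ER chaperones therefore rested on the disulfide-isomerases.

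Hormone-secreting cells of the pituitary make most of their protein for export, and each such protein crosses the ER membrane through the Sec61 channel while it is being translated. The TRAP complex sits beside that channel and helps certain nascent chains to enter, and signal peptidase cuts off the signal peptide on the lumenal side. Protein disulfide-isomerases then form and rearrange disulfide bonds, which peptide hormones and their precursors depend on. Chains that fail to fold are drawn back to the cytosol by the transitional ER ATPase and handed to the proteasome.

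Each of the 4 arrays compared RNA from 2 sets of dispersed pituitary cells, taken from goldfish of both sexes. The treated cells stood in static culture with 10 nM goldfish secretoneurin, a peptide cut from secretogranin II, for 12 h. The control cells are labelled as having had no incubation. If that is meant of incubation as a whole and not of the peptide, then secretoneurin and 12 h in culture cannot be told apart. Each group had 4 samples. The treated sample was labelled with Cy5 on replicates 1 and 3, and with Cy3 on the other arrays. The labels do not say whether the samples came from separate cultures, so p-values measure only how far these samples spread, and that spread may be technical.

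The scanner files gave a linear intensity per spot, with a median of 156 to 221 units for Cy5 and 400 to 653 for Cy3. A channel was counted as above background when its intensity exceeded the local background by 2 standard deviations (SD) of that background. This held for 43.6 to 73.0% of gene spots in Cy5 and 16.4 to 19.6% in Cy3. On every array the dye named in the labels was also the one in the file header. Even so, replicates 2 and 4, both with treated RNA in Cy3, correlated at r = -0.607 over 8026 probes, while replicates 1 and 3 correlated at r = 0.246. By rank the correlation of replicates 2 and 4 was weaker (Spearman rho = -0.133). Replicate 4 had r = -0.105 and -0.255 with replicates 1 and 3, while replicate 2 had r = -0.00606 and 0.109 with them. All these correlations are across probes, which are not independent replicates. Since 2 arrays of 1 contrast opposed each other, the direction of replicates 2 and 4 is not settled by the data. Estimates with either array's sign turned are therefore given for the measured ER clones, and for the medians of the ER and other secretory clones. Such a fit kept the dye effect. It left 1 array, the one not turned, alone in the Cy3 orientation, and that array weighs as much as the others together. A turned estimate is therefore not the plain mean of the ratios with 1 sign changed. The pituitary list held 13 hormone and granin probes, most of them secretogranins. Of these, 7 passed background in both dyes on every array, against 10.4% of all clones. Growth hormone and thyrotropin beta were among the 7, while GTH-II passed on 2 arrays in treated cells and on 1 in control cells. For other cell types, 0 of 18 globin, 13 of 91 muscle, 3 of 31 leukocyte, 0 of 59 neural and glial, 0 of 12 connective tissue and 2 of 26 liver probes reached that level. None of these 7 lists held a probe past the threshold, and the median log2 ratios of the lists lay between -0.050 and 0.040. The part of such cells in the results below was not tested.

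A log2 ratio below is secretoneurin over control after loess normalization within the array. The estimate for a clone came from a limma fit with a secretoneurin effect and a dye effect, and p-values were adjusted by Benjamini-Hochberg over all 8089 tested probes. No ER clone passed an adjusted p of 0.05, and neither did any other probe (0% higher and 0% lower in limma). The adjusted p of each of the 17 clones was 0.998. At an unadjusted p under 0.05, 1 ER clone was higher, against 1.2% of all probes, and 0 were lower, against 1.56%. The higher clone no longer met that p with the sign of replicate 2 or of replicate 4 turned. In these whole-culture samples fewer cells of a type and less RNA per cell cannot be told apart.

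The precision of the estimates varied with the clone. Of the 17 clones, 10 were above background in each group on at least 1 array and are called measured here. In 5 of the 10 both channels passed on all 4 arrays. For 4 of these 5 the 95% confidence interval of the ratio lay within 0.806- to 1.17-fold. The exception was the signal peptidase complex clone 40i16, whose interval ran from 0.339- to 2.50-fold. In the other 5 measured clones a channel failed to pass on at least 2 arrays, which draws a ratio towards 0 under the offset used, so their narrow intervals set no limit on a change. A further 5 clones were above background in treated cells but not well above background on any control array, against 32.1% of all clones. The last 2 had neither group well above background, against 14.5% of all clones. In all 5 the treated cells passed only where their RNA carried Cy5, the dye in which far more spots passed. No fold is given for these 7 clones, and their transcripts may still have been present. The 5 clones that passed in both dyes on every array were 5 of 17, against 10.4% of all clones.

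**Figure D1:**
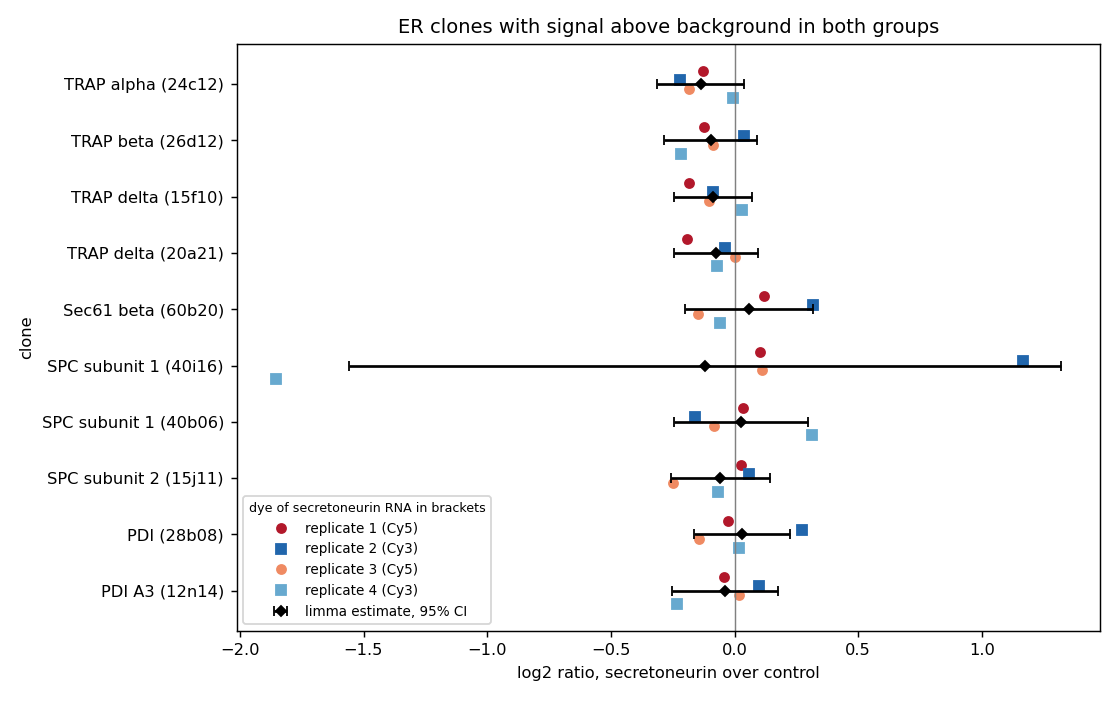
Log2 ratios of secretoneurin over control (horizontal axis) of the 10 measured ER clones (rows, ordered by role), with a circle or square for each of the 4 arrays by the dye of the treated RNA, and a diamond with a bar for the limma estimate and its 95% confidence interval. The points of the signal peptidase clone 40i16 run from -1.85 to 1.17, and all other points lie between -0.25 and 0.32.

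The 4 TRAP clones had estimates of 1 sign. All lay below 0, from -0.14 to -0.076, none past the threshold. A value below 0 was common, since 49.4% of all tested probes and 57.9% of the measured ones had it, so the sign of 4 probes is a description. Averaged over the 4 clones, the ratios were -0.16, -0.078, -0.093 and -0.067 on replicates 1 to 4, a mean of -0.099 ± 0.041 (SD, n = 4 arrays). Among all measured probes, 109 were lower and 25 higher at an unadjusted limma p under 0.05. All 4 array means of the TRAP clones were below 0. How often 4 other measured probes would give such means was not tested. With the sign of replicate 2 turned the fitted mean was -0.062, and with that of replicate 4 turned -0.070. These values follow from the 4 array means, with the Cy3 array not turned weighted as much as the others together. The 4 clones share the same arrays and 2 of them read TRAP delta, so a change of the complex was not tested.

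TRAP alpha, a membrane glycoprotein of the complex, was read by clone 24c12 and was bright in both channels on every array. Treated cells gave intensities of 1190, 1520, 748 and 2383 on replicates 1 to 4, and control cells gave 2898, 975, 1582 and 1283. The brighter group was the one labelled with Cy3 on each array, so the unnormalized ranges of the groups overlapped. After normalization the ratios were -0.13, -0.22, -0.19 and -0.0077. All 4 lay below 0, which held for 5.55% of all probes and for no other ER clone, and the last was close to 0. The estimate was -0.14 ± 0.064 (SE, n = 4), with a limma adjusted p of 0.998 and an unadjusted p of 0.0993. It was -0.019 with replicate 2 turned and -0.16 with replicate 4 turned. The spots of this clone disagreed in sign on 2 of the 4 arrays, with -0.35 and 0.095 on replicate 1.

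TRAP delta, a smaller membrane subunit, had a pair of clones. Clone 15f10 gave intensities of 713, 1597, 619 and 1705 in treated cells and 1855, 886, 1269 and 841 in control cells. Again the Cy3 sample was the brighter on every array. Its ratios were -0.19, -0.087, -0.10 and 0.032, with an estimate of -0.086 ± 0.057, so 3 arrays lay below 0 and 1 above. With replicate 2 or 4 turned it was -0.018 or -0.097. Clone 20a21 was above background in both channels on 1 array only and gave -0.076 ± 0.062, or -0.062 and -0.040 with replicate 2 or 4 turned. The estimates of the TRAP delta clones thus differed by less than either standard error. But the spots of 20a21 had opposite signs on 3 of the 4 arrays, with -0.57 and 0.43 on replicate 4. A failing channel also draws a ratio towards 0, so the closeness is not read as agreement. TRAP beta, clone 26d12, passed in both channels on 2 arrays, and its ratios were -0.12, 0.038, -0.087 and -0.22. Its estimate of -0.097 ± 0.068 became -0.15 with replicate 2 turned and 0.020 with replicate 4 turned. Its spots were among the least repeatable of the members, with a median difference of 0.62 on the log2 scale.

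Sec61 beta, the small tail-anchored subunit of the channel itself, was read by clone 60b20. It gave 0.058 ± 0.095, with ratios above 0 on 2 arrays and below 0 on 2. The estimate was -0.086 with replicate 2 turned and 0.16 with replicate 4 turned, so no direction can be given for it.

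**Figure D2:**
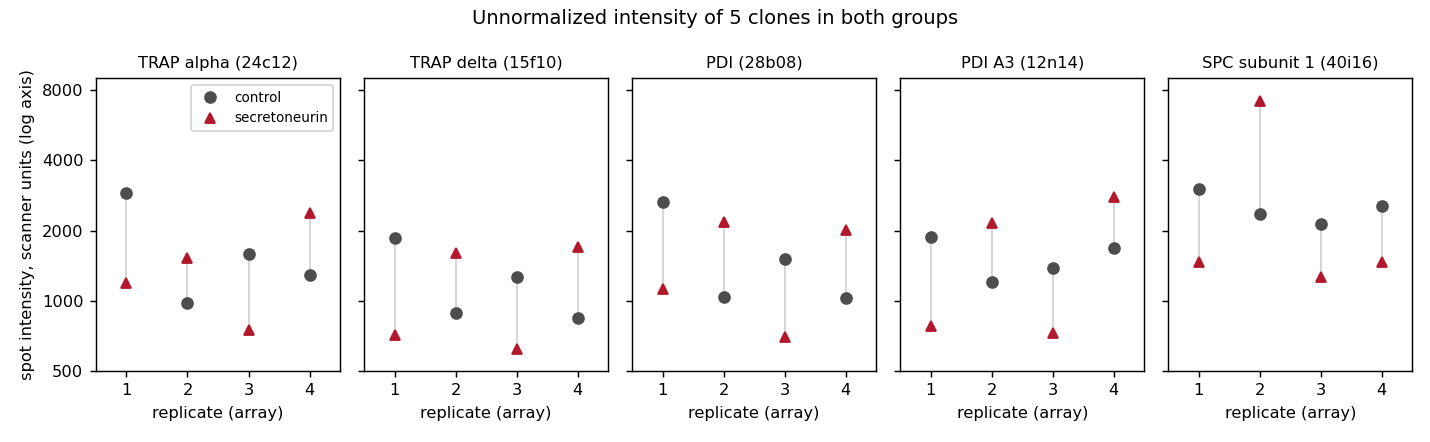
Unnormalized spot intensity (vertical log axis, scanner units) of the 5 ER clones that passed background in both dyes on every array, by replicate, with control cells as circles and treated cells as triangles. In 4 clones the treated sample is the dimmer on replicates 1 and 3 and the brighter on replicates 2 and 4, following the dye, while in 40i16 it is the dimmer on replicates 1, 3 and 4.

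Signal peptidase complex subunit 1, a small membrane subunit of the enzyme that cuts signal peptides, had the widest values of all ER clones. Its clone 40i16 was bright in both channels on every array, with intensities of 1469, 7224, 1262 and 1470 in treated cells and 3016, 2367, 2124 and 2543 in control cells. These values are unnormalized, and the treated RNA carried Cy5, the dye of lower intensity, on replicates 1 and 3. Their ranges are therefore not compared between the groups. The normalized ratios were 0.10, 1.17, 0.11 and -1.85. Replicates 1 and 3 were thus close to 0, while replicates 2 and 4, which share a dye orientation, lay far to either side.

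The estimate for 40i16 was -0.12 ± 0.53 (SE, n = 4), with a 95% confidence interval of -1.56 to 1.32. Without replicate 4 it was 0.64 with a limma adjusted p of 0.00740, in a fit that called 5.46% of all probes. Without replicate 2 it was -0.87 with a limma adjusted p of 0.00159, in a fit that called 4.35% of all probes. Each of these fits leaves 1 array in the Cy3 orientation, whose spread is taken from the other probes and arrays. The calls have opposite directions, and each rests on the array that is kept. Fitted with no dye effect, the estimate was 0.46 without replicate 4 and -0.55 without replicate 2, with limma adjusted p values of 0.869 and 0.939, and those fits called 0 probes of the array. With the sign of replicate 2 turned the estimate was -1.09, and with that of replicate 4 turned it was 0.93, neither past the threshold. The deviation was not one of single spots. Both spots of the clone gave 1.06 and 1.27 on replicate 2 and -1.79 and -1.92 on replicate 4, and they never disagreed in sign.

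A second clone with the same name, 40b06, was set beside it after the values had been seen. Its ratios were 0.036, -0.16, -0.084 and 0.31, so replicates 2 and 4 differed in sign in the other direction and by far less. Its intensities were 295, 602, 256 and 1054 in treated cells and 731, 246, 579 and 416 in control cells, and both channels passed background on 1 array. The estimate was 0.026 ± 0.099, or 0.17 and -0.14 with replicate 2 or 4 turned. The same transcript name therefore had 1 clone with a wide swing between arrays and 1 whose ratios showed none. But the treated channel of 40b06 did not pass background on replicate 2. A failing channel draws a ratio towards 0, so its ratio there sets no limit on a swing. Whether both clones come from 1 gene was not tested, since no clone sequence was used here. Subunit 2 of the complex, which is not its catalytic part, was read by clone 15j11, which was above background in only 1 channel on each of 2 arrays. It gave -0.058 ± 0.073, or -0.080 and 0.0024 with replicate 2 or 4 turned.

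The swing of 40i16 was shared by other probes of the array. A ratio above 1 on replicate 2 together with one below -1 on replicate 4 was found in 173 of 8026 probes (2.16%), and 40i16 was the only ER clone among them. These bounds were set after the data had been seen. The reverse combination was found in 0 probes. On replicates 1 and 3, which the selection did not use, the 173 probes had median ratios of 0.083 and 0.23, beside 0.10 and 0.11 for 40i16. The selection itself lowers the correlation of replicates 2 and 4, which was still negative without these probes (r = -0.397). Of the 173, 19 were as bright as 40i16 in the sense of passing background in both dyes on every array.

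**Figure D3:**
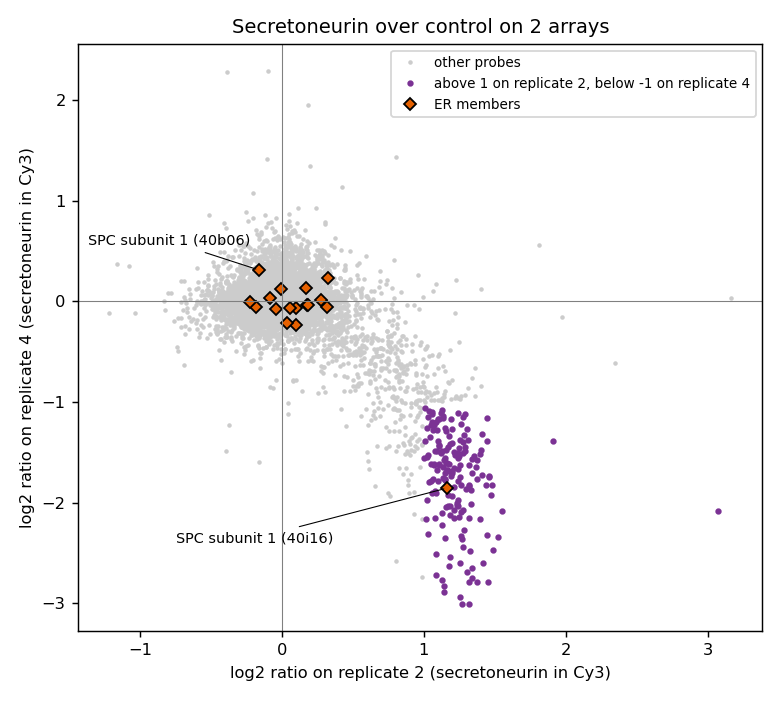
Log2 ratio of secretoneurin over control on replicate 2 (horizontal) against replicate 4 (vertical) for each probe, both arrays with treated RNA in Cy3. The ER clones (diamonds) lie near the origin except 40i16, which sits at 1.17 and -1.85 among the 173 probes that were above 1 on replicate 2 and below -1 on replicate 4.

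The disulfide-isomerases showed no common direction, with 3 of 5 clones above 0 and 2 below, and a median estimate of 0.029. Protein disulfide-isomerase, the most general enzyme of the family, was read by the bright clone 28b08. Its intensities were 1127, 2171, 697 and 2013 in treated cells and 2651, 1036, 1507 and 1032 in control cells, and the Cy3 sample was the brighter throughout. Its ratios of -0.027, 0.27, -0.14 and 0.017 straddled 0, and the estimate was 0.029 ± 0.071. That value became -0.065 with replicate 2 turned and 0.10 with replicate 4 turned, and it fell below 0 under 4 of the other processing choices. Its spots had opposite signs on 3 of 4 arrays.

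Protein disulfide-isomerase A3, which works on glycoproteins held by the lectin chaperones, was read by the bright clone 12n14. Treated cells gave 782, 2157, 729 and 2778 and control cells 1874, 1198, 1387 and 1678. The Cy3 sample was the brighter on every array, so these unnormalized ranges are not compared between the groups. The ratios of -0.043, 0.100, 0.018 and -0.23 lay on both sides of 0. The estimate was -0.039 ± 0.078, or -0.14 and 0.084 with replicate 2 or 4 turned. The remaining clones, 18a07 for A3, 28b09 for protein disulfide-isomerase and 60h04 for A6, another member of the family, were on no array well above background in control cells. Their single-array ratios lay between -0.39 and 0.18.

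The transitional ER ATPase, a hexameric motor that also acts outside the ER and unfolds its substrates, had 3 clones, all with estimates above 0, and 2 of them were the clones that passed background in neither group. Clone 16l04 had the lowest unadjusted p of the 17, at 0.0266, with ratios of 0.43, 0.32, 0.090 and 0.23. All 4 lay above 0, as in 5.17% of all probes, but neither group was well above background on any array. The unadjusted p was 0.371 with replicate 2 turned and 0.195 with replicate 4 turned. Its intensities were 400, 886, 157 and 911 in treated cells and 658, 263, 338 and 343 in control cells, and its spots differed in sign on 2 arrays. Clone 24o22, also not above background in either group, had ratios of 0.099, 0.17, 0.0055 and 0.13, on intensities of 232, 641, 130 and 533 in treated and 503, 159, 348 and 179 in control cells. Clone 18l02 passed in treated cells on 1 array. None of the 3 was well above background in control cells on any array, so these ratios are no folds between measured levels, and their shared sign is a description. With replicate 2 turned, 18l02 lay below 0. YTH domain protein 2 likewise did not pass background in control cells, and its ratios ran from -0.069 to 0.12.

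Over all 17 clones the median estimate was 0.026, with 9 above and 8 below 0, beside 0.0014 over all tested probes. It was -0.034 with replicate 2 turned (4 above and 13 below) and 0.079 with replicate 4 turned (11 above and 6 below). Over the 10 measured clones it was -0.067, with 7 below 0, beside -0.018 over all measured probes, and it was -0.073 or 0.011 with replicate 2 or 4 turned. The sign of the group's median thus depended on whether the clones not called measured were counted and on the direction of replicates 2 and 4. The median absolute estimate was 0.081 for the ER clones and 0.058 for all probes, and the median SE was 0.071 for both. A typical ER estimate was therefore about as large as its own error. The spots of a clone on 1 array differed by a median of 0.18 for the ER clones and 0.19 for all probes, larger in size than the estimate of every ER clone but 16l04.

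The dye effects that remained in the ER clones after loess, Cy5 over Cy3, lay between -0.12 and 0.22, and the lowest limma adjusted p among them was 0.756. At an unadjusted p under 0.05, 0 of 17 had a dye effect, against 6.65% of all probes, so the count says nothing particular about these clones.

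**Figure D4:**
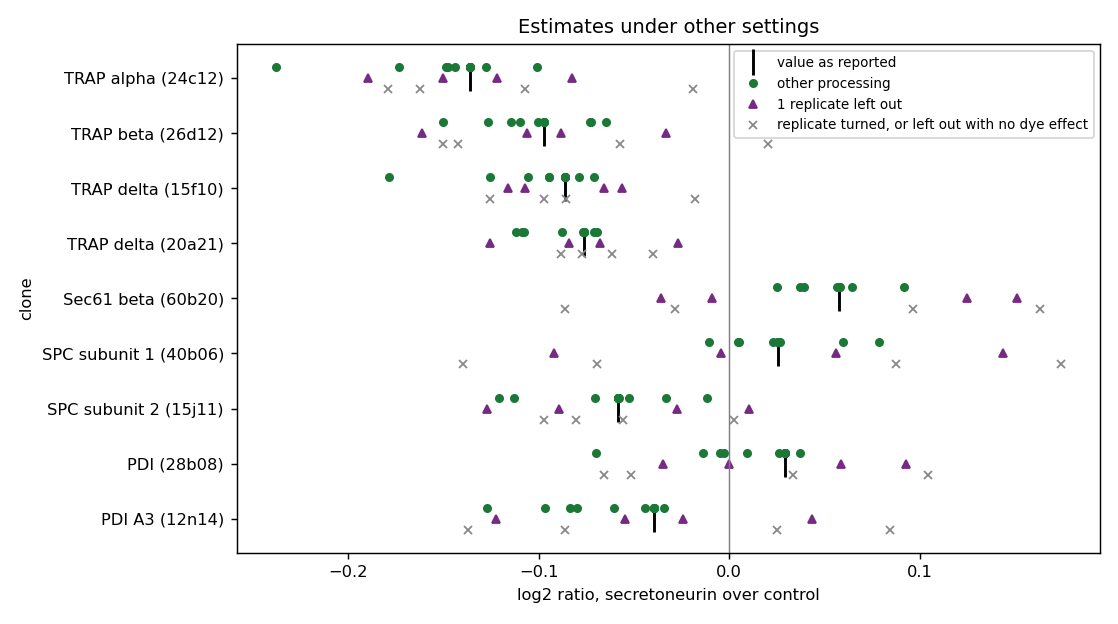
Estimated log2 ratio of secretoneurin over control (horizontal axis) of the measured ER clones other than 40i16 (rows) under other settings, with the reported value as a black bar, other processing of all 4 arrays as circles, fits without 1 replicate as triangles, and fits with replicate 2 or 4 turned or left out with no dye effect as crosses. The TRAP clones stay below 0 except for TRAP beta with replicate 4 turned (0.020), while the other 5 clones have values on both sides of 0.

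The rest of the secretory pathway was described from a list of name patterns. It matched 88 other clones, of which 53 were removed because their full names belonged elsewhere, which left 35. None passed the limma threshold. At an unadjusted p under 0.05, 1 was higher (18a05, named below), against 1.2% of all probes, and 0 were lower, against 1.56%. The median estimate was -0.0039, with 17 above and 18 below 0, or -0.014 and 0.0065 with replicate 2 or 4 turned. Over the 19 measured clones it was -0.025, with 12 below 0, or -0.032 and -0.020 with replicate 2 or 4 turned. Among the 3 clones of smallest p in the downward direction, glucosidase II beta (61m10), the regulatory subunit of an enzyme that trims glucose from new glycoproteins, had ratios of -0.36, -0.26, -0.14 and 0.052. Its estimate was -0.18 ± 0.085, with an unadjusted p of 0.100. A putative alpha-mannosidase (51a14) followed at -0.099 ± 0.059, and a predicted DnaJ homolog of subfamily B (54a06), a co-chaperone type, at -0.13 ± 0.084. Both channels passed background on 1 array in 61m10 and on 0 arrays in 51a14 and 54a06. A channel that fails draws a ratio towards 0, so these values set no limit on a change. Their estimates with replicate 2 or 4 turned are not given. In the upward direction the 3 were KDEL receptor 3 (18a05), which returns escaped ER proteins, a SEC23-interacting protein (16m02) and Derlin-1 (17n21), a channel component of ER-associated degradation. In control cells none of the 3 was well above background, so no fold is given. Another clone named as a SEC23-interacting protein, 18g17, passed in both channels on 2 arrays and gave -0.018 ± 0.074.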

How the data were processed

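RNA of treated and control cells was hybridised together on 4 arrays of 8100 clones, each printed in 2 spots. The deposited scanner files hold linear intensity and local background of both dyes, not background subtracted, per the file headers. The authors' deposited table has log2 ratios per probe, matched to Cy5 over Cy3 (r = 0.861 to 0.923 with the scanner ratios, array medians -0.046 to 0.031). Its normalization stayed unknown, and it served as an alternative. Background was corrected with normexp (offset 50) and ratios normalized by loess (span 0.3, with 4 iterations). The tools were limma 3.58.1 and R 4.3.3. Spots marked to be ignored (421 to 981 per array, 1 of them an ER clone's) and 1128 control or empty spots had no weight. The spot ratios were averaged per clone, and the 8089 probes with values on at least 3 arrays were fitted with lmFit and eBayes (two-sided), with 2 residual degrees of freedom. Only the fit was tested on simulated data. The simulated ratios had the same spread for every probe, unlike the data, and the steps before the fit were not applied to them. Clones named in full were those above background in both channels on at least 2 arrays, or with 1 direction on all 4 arrays, or with an unadjusted p under 0.05; of the other secretory clones, the 3 of smallest p per direction. The members and lists were chosen with earlier results of these data known. Names are those of the array design.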

Additional observations from a re-analysis of the deposited data

How the results depend on the processing

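No ER clone passed the limma threshold under any of the processing alternatives on all 4 arrays. The TRAP estimates stayed below 0 under them, but not all of these alternatives could move an estimate. The fit with no dye effect, the unmoderated test and the restriction to bright probes leave it as it was. That restriction kept 2 of the 4 TRAP clones. Among the TRAP clones, the fit of both spots moved only 26d12. The alternatives moved other values. The protein disulfide-isomerase clone 28b08 turned to -0.070 with median centring, -0.0024 with no background correction, -0.014 with background subtraction and -0.0046 in the deposited table, and 40b06 turned to -0.010 with no background correction. Median centring also moved the TRAP mean to -0.17. Restricted to probes that passed background in both dyes on every array, the member median was -0.086 (5 clones) and that of the other secretory list 0.050 (1 clone). The unadjusted call of 16l04 was lost with print-tip loess, in the deposited table, in the unmoderated test, without replicate 1 and with replicate 2 or 4 turned, while its estimate stayed above 0 in these fits.

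Leaving out each replicate in turn, the number of all probes past the threshold ran from 0 to 419 higher and from 0 to 309 lower (37 and 309 without replicate 2, 419 and 18 without replicate 4), and of ER clones from 0 to 1 in each direction, which was 40i16. The same fits without replicate 2 or 4 and with no dye effect called 0 probes. The TRAP mean ran from -0.11 to -0.083 and the member median from -0.036 to 0.044. Single clones ran from -0.12 to 0.044 (12n14), -0.87 to 0.64 (40i16), -0.036 to 0.15 (60b20), -0.13 to 0.010 (15j11), -0.034 to 0.093 (28b08) and -0.092 to 0.14 (40b06). The following were chosen after seeing the data. With the sign of replicate 2 turned, the member median was -0.034 (0.079 with replicate 4 turned), 60b20 was -0.086 and 28b08 -0.065. With replicate 4 turned, 12n14 was 0.084, 40i16 0.93, 26d12 0.020, 15j11 0.0024 and 40b06 -0.14, and 1 probe of the array was called higher. Without replicate 2 and with no dye effect, the member median was -0.052, that of the other secretory list -0.041, 60b20 -0.028 and 28b08 -0.052. Without replicate 4 and with no dye effect, 12n14 was 0.025, 40i16 0.46 and 40b06 -0.069. Leaving out the 173 opposing probes could not change the estimate of any other clone, since each clone was fitted alone on ratios already normalized. The reported fit is already paired, since each ratio sets treated over control on 1 array. The number of arrays limits the precision, and fewer spots were above background in Cy3.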

Other observations

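Among the 173 probes that were above 1 on replicate 2 and below -1 on replicate 4, 83 (48%) carried the description of an unclassifiable EST, against 32.8% of all clones. Their spots agreed to a median of 0.15 on replicate 2 and 0.32 on replicate 4. Of their names, 32 belonged to several clones of the array. In each of these names only some of the clones had the pattern, as with signal peptidase complex subunit 1. A name was listed because it held such a clone, and only 2.16% of all probes had the pattern. The mix was therefore nearly fixed in advance and says nothing particular about these names. In the other secretory list, SEC13 (19l20) had 1.05 on replicate 2 and -0.98 on replicate 4, and coatomer epsilon (35o11) had 0.84 and -0.98. What these probes share beyond this was not tested.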
